A study of Schizosaccharomyces pombe with 2 samples.

Results

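The genes described here are the fission yeast genes for ubiquitylation of histone H2B and for methylation of histone H3 at lysine 4 and lysine 36: rhp6, brl1, brl2, shf1, ubp8, set1 and set2. They were taken by name, by current symbol or systematic ID, from a set chosen by its log2 ratios of mutant over wild-type signal on these same arrays. All 7 have spots on the array. The spots of brl1 carry the name SPCC1919.15 with the added word missing, whose meaning the files do not give, so that 6 of the 7 were among the 4745 genes tested. Total RNA of a strain labelled pob3 was compared with that of a strain labelled wt (wild type) on 2 spotted arrays of open reading frames of Schizosaccharomyces pombe, each gene spotted in duplicate. On replicate 1 the pob3 RNA carried Cy5 and the wild-type RNA Cy3, and on replicate 2 the dyes were swapped. Pob3 and Spt16 make up the histone chaperone FACT, and the series concerns FACT, centromeric heterochromatin and RNA interference. The labels describe neither the pob3 allele nor the growth of the cells, nor whether separate cultures were used for the arrays, so that p-values cover no more than array-to-array spread, possibly a technical one.

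Ubiquitin is placed on histone H2B in this yeast by a complex in which Rhp6 is the ubiquitin-conjugating enzyme, Brl1 and Brl2 are paired RING-finger ligases and Shf1 is a further subunit. Ubp8, in the SAGA coactivator, takes the ubiquitin off again. Ubiquitylated H2B marks transcribed genes and is needed for methylation of H3 lysine 4 by Set1, while Set2 methylates H3 lysine 36 behind elongating RNA polymerase II. FACT acts on the same transcribed nucleosomes, which it loosens and reassembles.

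As a check of the labels, the log2 ratio of the pob3 transcript (mutant over wild type, as for all ratios here) was -1.40 on replicate 1 and -1.12 on replicate 2. The adjusted p of its mean was 0.0613 (limma, Benjamini-Hochberg), and with the allele undescribed it is not known whether the probe lies in the changed part of the gene. The spt16 transcript had -0.09 on replicate 1 and 0.07 on replicate 2. Signals of gene spots exceeded the background limit for 96.6% to 98.2% of spots per file in Cy3, and for 98.3% to 98.7% in Cy5. Median gene signals per spot file were 6300 and 6249 scanner units in pob3 against 2009 and 1977.5 in wild type on replicate 1. On replicate 2 they were 4441.5 and 4217 in pob3 against 5364 and 5082.5 in wild type. The channel labelled Cy5 was thus the brighter one on both arrays, and ratios were normalised for this by intensity-dependent loess within each spot file, which left medians over all genes of -0.002 on replicate 1 and 0.01 on replicate 2.

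Mean log2 ratios of the genes for the H2B ubiquitylation complex differed in sign. The shf1 transcript was higher in pob3, with a mean log2 ratio of 1.40 ± 0.30 (SD, n = 2 arrays), a 2.65-fold difference. The ligase transcript brl2 was lower, at -0.66 ± 0.03, and rhp6 lay at -0.17 ± 0.24. The spots of the other ligase gene, brl1, gave -0.64 ± 0.27, but their name is marked missing, so that what they measure is uncertain. The deubiquitylase transcript ubp8 was lower too, at -0.47 ± 0.08. The methyltransferase transcripts set1 and set2 had opposite signs on the arrays, with means of 0.17 ± 0.73 and -0.07 ± 0.23. These values belong to the contrast in which the genes were chosen and are given as a description, without a test. In RNA of whole cultures, fewer cells with a transcript and less of it per cell cannot be told apart.

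**Figure D1:**
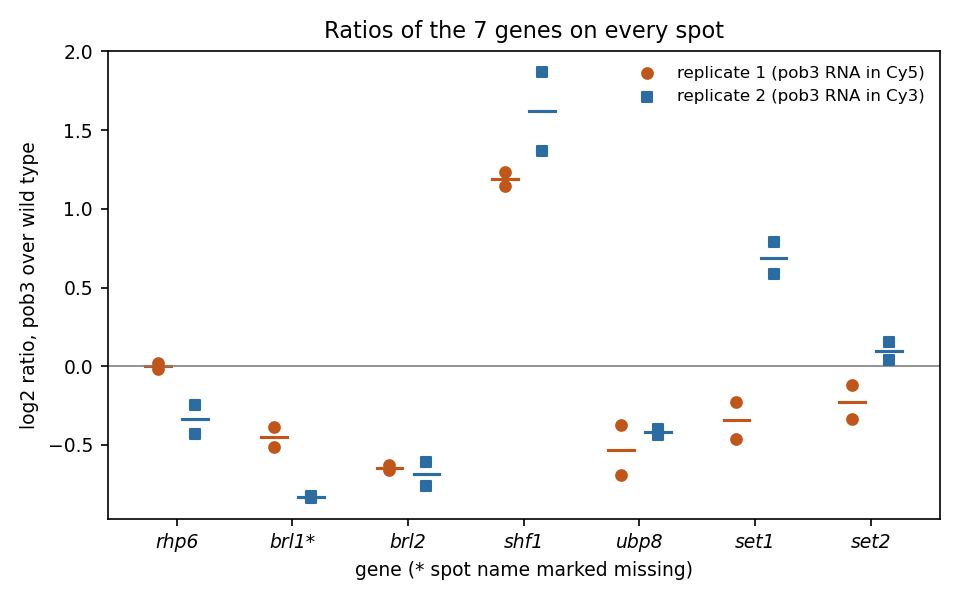
Log2 ratios of pob3 over wild type (vertical axis) for each of the 7 genes on every spot, circles for replicate 1 and squares for replicate 2, with a bar at the mean of an array's duplicate spots. All 4 spots of shf1 lie above 1.1, all 4 spots of brl1, brl2 and ubp8 lie below 0, and those of set1 and set2 lie below 0 on replicate 1 and above 0 on replicate 2.

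Shf1 is a subunit of the H2B ubiquitin ligase complex in fission yeast. Its spots, named SPAC22F8.12c on the array, gave signals over background of 13432 and 11114 scanner units in pob3 against 2006.5 and 1744 in wild type on replicate 1. On replicate 2 they gave 12413 and 10174 in pob3 against 3624.5 and 4200 in wild type. The pob3 signal was the higher on all 4 spots, also where the wild-type RNA carried the brighter dye, and none of the signals was saturated. After normalisation the log2 ratios of the duplicate spots were 1.23 and 1.14 on replicate 1 and 1.87 and 1.37 on replicate 2. The mean ratios of the arrays corresponded to 2.28-fold and 3.07-fold higher levels in pob3. The gene ranked 25 from the top among the 4745 genes by its mean. The authors' deposited table gives log2 ratios of 1.88 and 1.38 for the duplicate spots on replicate 2, whose direction was found by setting the table against the scanner values.

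Of the 6 genes tested, 1, shf1, was among the genes past an adjusted p of 0.05 in limma's fit over all genes, where 0.527% of all genes passed. It was also the 1 of the 6 over 2-fold higher on both arrays, the fold that the submitters used for their gene lists, as were 0.738% of all genes. Since the genes were chosen with this contrast known, nothing is read from these counts. The gene was not past the threshold with a normexp offset of 10 or with median centring in place of loess. Nor was it past without the filter on spots or with duplicateCorrelation over the 4 spot files. Its mean ratio stayed between 1.26 and 1.55 over 11 other processing settings, of which the changed spot filters altered none of its spots. With loess fitted within each block of the array, its replicate 1 log2 ratio was 0.89, short of 2-fold.

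**Figure D2:**
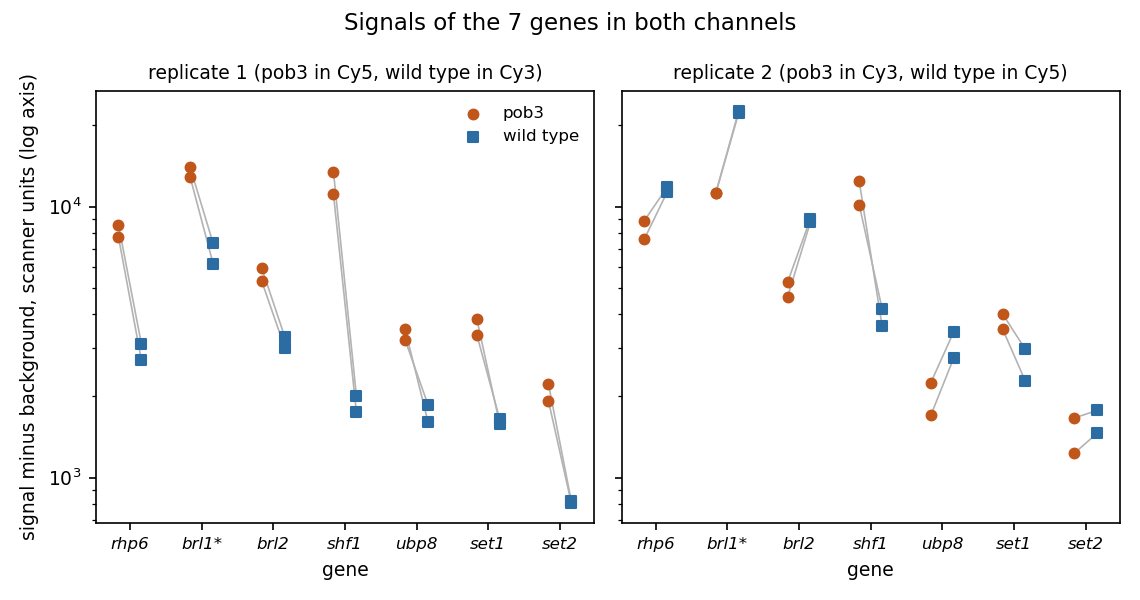
Signal minus local background in scanner units (vertical log axis) for each of the 7 genes, pob3 as circles and wild type as squares, 1 line per spot, with replicate 1 on the left and replicate 2 on the right. On replicate 1 all 7 genes are brighter in pob3, which carried Cy5, and on replicate 2 only shf1 and set1 are, while brl1, brl2, rhp6, ubp8 and set2 are brighter in wild type, which then carried Cy5.

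Brl2 is one of the paired RING ligases. Its spots, named SPCC970.10c, gave signals over background of 5928 and 5299 in pob3 against 3310 and 3020 in wild type on replicate 1, and 5255 and 4639 in pob3 against 9027.5 and 8775.5 in wild type on replicate 2. The log2 ratios after normalisation were -0.63 and -0.66 on the spots of replicate 1 and -0.61 and -0.76 on those of replicate 2. All 4 spots, which are duplicates on the same 2 arrays, thus lay below 0 and close together, and 5.16% of all genes had a smaller SD between the arrays. In limma's fit over all genes brl2 was not past the threshold, and the closeness of its spots is no test of its ratio. By its mean, 1.60% of all genes lay below brl2. The authors' deposited table gives -0.67 and -0.82 for the spots on replicate 2.

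Brl1 is the other RING ligase. Its signals over background, under the marked name, were 12861 and 13966 in pob3 against 6164 and 7333.5 in wild type on replicate 1. On replicate 2 they were 11256 and 11229 in pob3 against 22597 and 22227 in wild type. The log2 ratios were -0.38 and -0.51 on the spots of replicate 1 and -0.83 and -0.83 on those of replicate 2, so that all 4 spots lay below 0. Of the 154 names marked missing, 7 had all their spots above background in both channels. The authors' deposited table gives no value for the brl1 spots on replicate 2, nor for those of rhp6. Another gene, brr6, has brl1 among its synonyms and was not taken for it.

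Rhp6, the ubiquitin-conjugating enzyme, also acts with other ligases in DNA damage tolerance. Its signals over background were 8569 and 7722 in pob3 against 3112 and 2712 in wild type on replicate 1, and 8862 and 7568.5 in pob3 against 11785 and 11315 in wild type on replicate 2. Its log2 ratios were -0.02 and 0.02 on the spots of replicate 1 and -0.25 and -0.43 on those of replicate 2. The transcript was thus near 0 on one array and below 0 on the other, and 3 of its 4 spots lay below 0. Set beside shf1 on the same arrays, brl2 was lower by differences of log2 ratios of -1.83 on replicate 1 and -2.30 on replicate 2, brl1 by -1.64 and -2.45, and rhp6 (rhp6 minus shf1) by -1.19 and -1.96. Since shf1 had the highest ratio of the genes described on both arrays, the sign of these differences was fixed by setting them beside shf1.

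Ubp8 is the ubiquitin-specific protease of SAGA. Its spots, named SPAC13A11.04c, gave signals over background of 3224.5 and 3522 in pob3 against 1854.5 and 1606 in wild type on replicate 1. On replicate 2 they gave 2241.5 and 1699 in pob3 against 3455.5 and 2766.5 in wild type. The log2 ratios were -0.69 and -0.37 on the spots of replicate 1 and -0.40 and -0.43 on those of replicate 2. All 4 spots lay below 0, and 5.44% of all genes had a lower mean. The authors' deposited table gives -0.47 and -0.51 for the spots on replicate 2. Of the 6 genes tested, 1 (shf1) was above 0 on both arrays, as were 26.8% of all genes, and 2 (brl2 and ubp8) were below 0 on both, as were 25.7% of all genes.

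Blocks of the array differed in their ratios as well. The arrays were printed in 32 blocks, and each of the 7 genes lies in a block of its own. The gene spots of the block that holds ubp8 had median log2 ratios of -0.13 on replicate 1 and -0.31 on replicate 2. Those of the block of brl2 had -0.19 and -0.27, those of the block of brl1 -0.11 and -0.25, and those of the block of rhp6 -0.10 and -0.27. The block of shf1 had 0.17 on replicate 1 and -0.07 on replicate 2. With loess fitted within each block (print-tip loess), the mean was -0.25 for ubp8, -0.55 for brl2, -0.40 for brl1, -0.05 for rhp6 and 1.33 for shf1. The ubp8 ratio was then -0.41 on replicate 1 and -0.09, near 0, on replicate 2. The values for brl2, brl1, ubp8 and shf1 kept their sign on both arrays under every processing setting tried that gave them a value, 11 settings each and 10 for brl1. Among these settings, the changed spot filters altered none of their spots, and all settings rest on the same arrays.

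**Figure D3:**
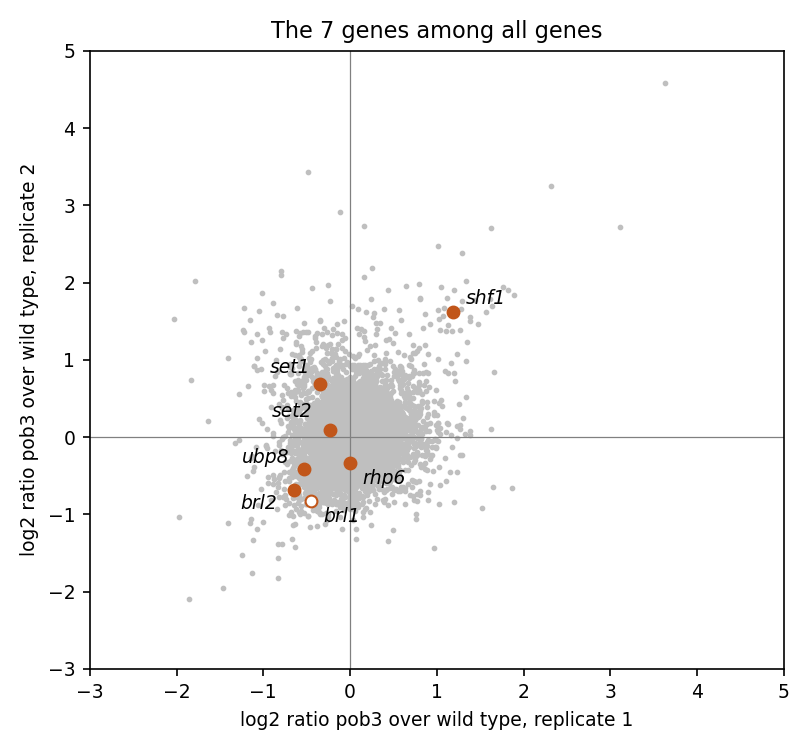
Log2 ratio of pob3 over wild type on replicate 1 (horizontal) against replicate 2 (vertical), with 4745 genes in grey, the 6 genes tested as filled circles and brl1, whose spot name is marked missing, as an open circle. The shf1 point lies at the upper right margin of the cloud, at 1.19 and 1.62, brl1, brl2 and ubp8 lie at its lower left, and set1 lies in the upper left quadrant.

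Set1 is the catalytic subunit of the complex that methylates H3 lysine 4. Its spots, named SPCC306.04c, gave signals over background of 3854.5 and 3368 in pob3 against 1577 and 1644 in wild type on replicate 1, and 4023.5 and 3540 in pob3 against 2972 and 2266.5 in wild type on replicate 2. After normalisation the log2 ratios were -0.22 and -0.46 on replicate 1 and 0.59 and 0.79 on replicate 2. The duplicate spots of an array went the same way and the arrays went opposite ways, so that after normalisation the Cy3 channel was the higher one on both. The difference of the arrays divided by 2 (replicate 1 minus replicate 2) was -0.52, and 7.97% of all genes had a larger one in size. With 1 array per dye orientation, what goes with the dye, the array or the culture cannot be told apart in this difference. The authors' deposited table gives 0.58 and 0.81 for the spots on replicate 2.

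Set2, which binds elongating RNA polymerase II and methylates H3 lysine 36, was read from spots named SPAC29B12.02c. The signals over background were 1921.5 and 2216.5 in pob3 against 805 and 817 in wild type on replicate 1, and 1659.5 and 1229.5 in pob3 against 1770.5 and 1458.5 in wild type on replicate 2. The log2 ratios were -0.34 and -0.12 on the spots of replicate 1 and 0.15 and 0.04 on those of replicate 2, near 0 and of opposite sign on the arrays. Of the 6 genes tested, 3 (rhp6, set1 and set2) had opposite signs on the arrays, against 47.5% of all genes. For rhp6 and set2 this turned on the processing. The rhp6 ratio, 0.003 on replicate 1, lay below 0 on both arrays with median centring (-0.05 and -0.25 on replicates 1 and 2), with print position medians subtracted (-0.08 and -0.05) and in the first spots alone (-0.02 and -0.25). The set2 ratio lay below 0 on both with median centring, at -0.11 and -0.05.

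The related gene lists comprised 110 genes, of which 103 were tested. None of the 103 passed an adjusted p of 0.05 in limma, where 0.527% of all genes did, and 2 (jmj4 and clr4) had an unadjusted p under 0.05, where 7.4% of all genes did. The median of their mean log2 ratios was 0.01, against 0.02 over all genes. Missing the threshold is no evidence that levels were equal.

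The Paf1 complex travels with RNA polymerase II and is needed for H2B ubiquitylation. Of the 5 genes listed under it here, 0 passed the test, and their median was -0.16. The cdc73 transcript had -0.40 on replicate 1 and -0.39 on replicate 2, paf1 had -0.08 and -0.50, and leo1 had -0.23 and -0.08. The tpr1 transcript, of the Ctr9 homologue, had 0.08 and 0.69. The prf1 transcript, of the Rtf1 homologue, had 0.58 and 0.13, and was put in this list without a check that its protein is a stable subunit. Of the 5, 3 lay below 0 on both arrays and 2 above 0 on both, against 25.7% and 26.8% of all genes.

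Of the 7 partners of Set1 in its complex, 0 passed, and their median was 0.004. The WD-repeat subunit genes swd2 and swd3 had -0.11 and -0.80, and -0.33 and -0.37, on replicates 1 and 2. The gene of another such subunit, swd1, named after its values were seen, had 0.10 on replicate 1 and -0.72 on replicate 2. The sdc1 transcript, of a Dpy30-like subunit, had -0.12 on replicate 1 and 0.75 on replicate 2. Of the 7, 5 had opposite signs on the arrays, as 47.5% of all genes did. Not all of these went in the direction of set1, which was below 0 on replicate 1 and above 0 on replicate 2, and swd1 for example went the reverse way.

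Of the SAGA genes other than ubp8, 15 of 18 were tested and 0 passed, with a median of 0.01. Among them sgf73, of the subunit that in budding yeast anchors the deubiquitylating module, had -0.51 on replicate 1 and 0.49 on replicate 2, a gene picked out after its values were seen. The values of those with the smallest p were 0.49 ± 1.02 for taf5, 0.36 ± 0.37 for taf10 and -0.34 ± 0.05 for spt3, with adjusted p-values of 0.805, 0.819 and 0.821 (limma).

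Methylated H3 lysine 36 is read by chromatin complexes that hold histone deacetylase or acetyltransferase subunits. Of 6 genes of Clr6 complex II, which contains the deacetylase Clr6, 0 passed and the median was 0.12. In this list cph1, of a PHD-finger subunit, had 0.55 ± 0.25, clr6 had 0.32 ± 0.68 and alp13, of a chromodomain subunit, had 0.18 ± 0.02. Of 7 genes of the Mst2 acetyltransferase complex, 0 passed and the median was -0.26, with -0.18 and -0.23 as medians on the arrays. The lowest p-values there were those of eaf6 (-0.43 ± 0.10), ptf1 (-0.45 ± 0.63) and ptf2 (-0.26 ± 0.11).

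Another list held 10 genes, those of the Lsd1 complex and of proteins with a JmjC domain, the domain of many histone demethylases, and also snt2. Of these 0 passed and the median was -0.03. The jmj4 transcript had -0.79 on replicate 1 and -1.39 on replicate 2, with a mean of -1.09 ± 0.42 and an adjusted p of 0.152 (limma). It passed the threshold with print-tip loess, with medians of print positions subtracted, with the first spots alone and with the submitters' values for replicate 2. The next, snt2 and jmj3, both had a mean of -0.25, with SDs of 0.06 and 0.41.

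Of 9 tested genes for kinases of the RNA polymerase II tail and for the elongation factor Spt4-Spt5, 0 passed and the median was 0.05. The spt4 transcript had -0.38 ± 0.29, lsg1 had 0.31 ± 0.28 and spt5 had -0.19 ± 0.13.

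The families to which the enzymes belong were set beside them. Of 13 other tested genes of the ubiquitin-conjugating enzyme family, not all of which act on ubiquitin, 0 passed and the median was -0.09. The values were -0.44 ± 0.01 for ubc15, 0.37 ± 0.15 for ubc11 and -0.41 ± 0.79 for ubc13. Of 13 other tested ubiquitin-specific protease genes, 0 passed and the median was 0.06. In that family ubp3 (-0.55 ± 0.01) and ubp12 (-0.41 ± 0.09) lay below 0 on both arrays, as ubp8 did, and ubp9 (0.51 ± 0.16) lay above 0 on both. Of 10 other SET-domain genes, 0 passed and the median was 0.10, with 0.57 ± 0.13 for clr4, the H3 lysine 9 methyltransferase gene (adjusted p = 0.664, limma), 0.42 ± 0.44 for set3 and 0.25 ± 0.11 for set6. In wild type, the clr4 signal exceeded background on 1 of the 2 arrays.

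Core histone genes supply the substrates of these enzymes. Of 8 tested, 0 passed and the median was 0.04, but 8 of 8 had saturated spots in the pob3 channel on at least 1 array, so that their ratios are limited by the scanner's range. The transcript of htb1, the H2B gene, had 0.48 on replicate 1 and 0.06 on replicate 2, with saturated spots in pob3 on 2 arrays and in wild type on 1. The hta2 and hhf3 transcripts, of H2A and H4, had 0.32 ± 0.12 and 0.55 ± 0.52. H3 and H4 are each encoded by near-identical gene copies, and whether the probes tell the copies apart was not tested.

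**Figure D4:**
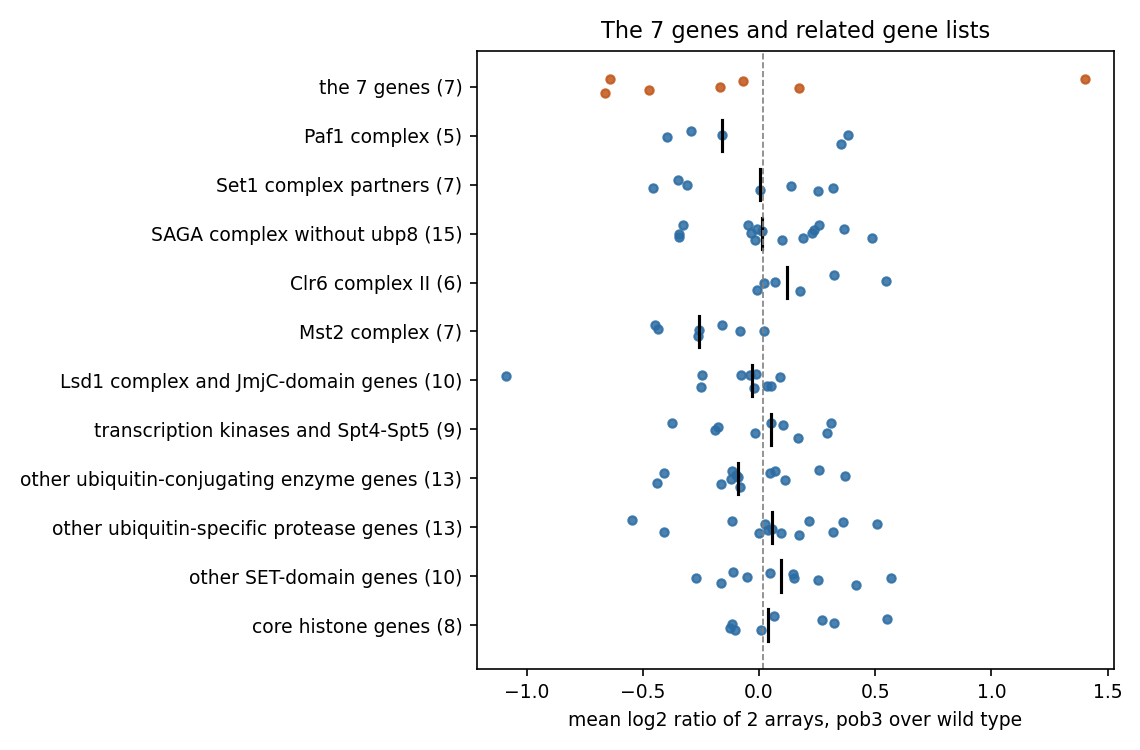
Mean log2 ratio of pob3 over wild type over the 2 arrays (horizontal axis) for the 7 genes (top row) and for 11 lists of related genes, 1 point per gene, with the number of genes measured in brackets, a black bar at each list's median and a dashed line at the median of all genes. The shf1 point at 1.40 lies to the right of all list genes, the highest of which are clr4 at 0.57, above background in wild type on 1 of 2 arrays, and hhf3 at 0.55, with saturated spots in pob3 on 1 array, and jmj4 at -1.09 is the lowest.

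The genes next to the 7 on their chromosomes, 1 on each side, were looked up by order in a reference annotation. Of these 14 neighbours 11 were tested, 0 passed, and their means lay between -0.34 and 0.33. The neighbours of shf1 are plc1, of a phospholipase C, with 0.36 on replicate 1 and 0.29 on replicate 2, and caf16, with 0.39 and -0.28. The annotated plc1 and shf1 genes overlap, as do sec8 and brl2, ino80 and set2, and mcp7 and ubp8, and the sources used here do not say whether the probes tell the strands apart. On replicates 1 and 2, sec8 had -0.16 and 0.04, ino80 had -0.07 and 0.03, and mcp7 had -0.04 and -0.01. The plc1 and caf16 ratios lay below that of shf1 on both arrays, which had 1.19 and 1.62. By the mean, 99.5% of all genes lay below shf1. Beside set1, ins1 had -0.08 on replicate 1 and 0.72 on replicate 2, and cnd2 had -0.06 and -0.25.

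Over the log2 ratios on the 4 spot files, the genes most like shf1 by Euclidean distance, out of 4667 with a value on every file, were leu2, pvg3 and SPAC1834.10c. The leu2 transcript, of leucine biosynthesis, had 1.09 on replicate 1 and 1.67 on replicate 2, at a distance of 0.348. The values were 1.07 and 1.56 for pvg3, and 1.11 and 1.38 for SPAC1834.10c, at distances of 0.394 and 0.427. Their adjusted p-values were 0.0505, 0.0573 and 0.0638 (limma).

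**Figure D5:**
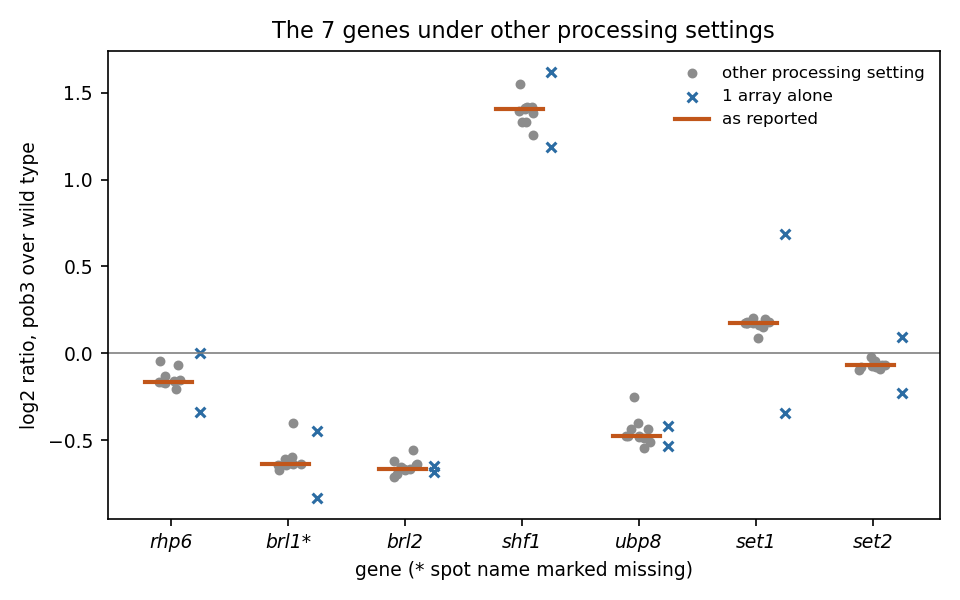
Log2 ratio of pob3 over wild type (vertical axis) of each of the 7 genes as reported (bars), under other processing settings (grey points) and on 1 array alone (crosses). The points of shf1 lie between 1.26 and 1.55 and those of ubp8 between -0.54 and -0.25, while the crosses of set1 lie on both sides of 0, at -0.34 and 0.69.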

How the data were processed

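Each deposited spot file holds scanner intensities per the file headers: for either channel, medians of the spot's signal and of the background around it. There are 2 files per array, 1 for each duplicate, with 5760 spots apiece, and no source used here names the software. The authors' table of processed values contains log2 ratios, made with Lowess per the series' design text. Its replicate 2 column followed the log2 ratios recomputed from the scanner files (r = 0.977), which sets its direction as pob3 over wild type. Its replicate 1 column has 768 values, 0 of them on gene spots. Its scale, centring and direction are therefore unknown, and it went unused. Medians of the columns were -0.12 (replicate 1) and -0.04 (replicate 2).

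With limma 3.58.1 (R 4.3.3), signals were corrected by normexp at an offset of 50, and loess was run per file, with no weight on control spots. All ratios were then oriented as pob3 over wild type. Spots needed a flag of 0 and had to exceed the background limit in either channel: 2 background SDs in Cy3, or 1.5 times the background in Cy5. The single SD column names no channel and was taken as that of Cy3. A gene's spots gave 1 mean per array, and lmFit with eBayes tested the mean of the arrays against 0 for 4745 genes, with Benjamini-Hochberg adjustment. As each gene has 1 residual degree of freedom, the test leans on the pooled spread (prior SD 0.37), and the number of arrays limits precision. The fit was tested on simulated data.

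The array carries 4868 gene names. A RefSeq table (ASM294v3), consulted for present-day names and gene order alone, placed 4649 of them at 1 locus, 13 at several and 206 at none. Control spots were not tested, nor were 154 names marked missing, 25 probes for reporters, intergenic or intronic sequence, and 1 name in the form of a date. The 7 genes and the lists were chosen with earlier results of these data known. Names in the text comprise the 7 genes, pob3, spt16, htb1, the Paf1 complex genes, the 3 smallest p-values of each list, the 3 genes most like shf1 and chromosomal neighbours, and other names carry a remark. Alternatives varied the background correction, normalisation, spot filter, duplicates, source of values and test, and took each array alone.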

Additional observations from a re-analysis of the deposited data

Results flagged for a closer look

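The spots of brl1 were outside the comparison because their name is marked missing, yet 4 of 4 lay above background in both channels, with the log2 ratios given above. Of the 154 names so marked, 7 had every spot above background in both channels. Over the 4 files, 5.52% of spots with such a name lay above background in Cy3 and 10.9% in Cy5, against 1.94% and 6.26% of empty and buffer spots, and 97.4% and 98.5% of gene spots. With these names kept among the genes tested, an alternative chosen after seeing the data, 25 genes passed the threshold and shf1 was still the 1 of the 7 genes among them.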

How the results depend on the processing

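In place of the 25 genes past the threshold, omitting the background correction gave 39 and lowering the offset to 10 gave 13. Median centring gave 0, although in limma the unadjusted p was under 0.05 for 173 genes. Print-tip loess gave 55, scaling the arrays to 1 spread 42, subtracting print position medians 64, requiring signal in both channels 38, the first duplicates 40, the second duplicates 48, the submitters' replicate 2 values 71 and an adjusted p of 0.10 gave 51. Among the 6 genes tested, the 1 call (shf1) became 0 at an offset of 10, under median centring, without spot filtering and under duplicateCorrelation. Among the related genes, 1 (jmj4) passed in place of 0 under print-tip loess, print position medians, first duplicates and the submitters' values. The cause of these changes was not tested. Leaving out single arrays and settings that changed none of a gene's spots, 56 of 61 values of the 7 genes under alternatives lay within 1 SD of the reported value. The others were brl2 at -0.55 and ubp8 at -0.25 under print-tip loess, and brl2 at -0.62 and -0.71 in the first and second duplicates and -0.70 by the submitters' values. The SD is that of a gene's own 2 arrays, 0.03 for brl2 and 0.73 for set1. The count thus depends on the size of this SD and is no measure of stability. On 1 array alone, which leaves no test, rhp6 ranged from -0.34 to 0.003, set1 from -0.34 to 0.69 and set2 from -0.23 to 0.10, and the other 4 genes kept their sign. Each ratio already sets the RNAs of an array against each other, and no replicate block could be fitted to a single group of arrays. All 7 genes were above background in both channels of both arrays.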
